A study of Homo sapiens with 8 samples.

Results

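Named intergenic and antisense noncoding RNAs were followed in the human melanoma cell line A375 after overexpression of the long noncoding RNA SLNCR1 or parts of it. The RNAs were chosen by name and level: entries named LINC with a number, or ending in AS or AS with a number after a hyphen, that had a mean of at least 20 normalized reads in the vector libraries, without LINC00511, LINC00657 and OIP5-AS1. This gave 307 members, 100 with LINC names and 207 with antisense names, of 1504 entries with such names (614 LINC and 890 antisense) and of 56638 entries in all. Both classes are described separately below. The level limit used the vector libraries alone, which are also the denominator of every fold change over vector.

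Each of the 4 groups had 2 poly(A)-selected RNA libraries. The cells were transfected 24 h after seeding with a cationic lipid reagent, with plasmid pcDNA3.1(-) that carried full-length SLNCR1, the conserved region of SLNCR1 alone (SLNCR1 conserved), or SLNCR1 without that region (SLNCR1 delta conserved), and the vector group received the empty plasmid. All groups thus share the transfection, the plasmid backbone, the harvest at 48 h after it and growth medium with 10% serum. The sources used here do not say whether the libraries came from separate cultures, so p-values measure the spread between these libraries, which may be technical.

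Most long noncoding RNAs are transcribed by RNA polymerase II and many are spliced, capped and polyadenylated like messenger RNAs. LINC names are given to RNAs that start outside protein-coding genes. Antisense names are given to RNAs made from the strand opposite a named gene, either overlapping it or starting back to back with it from a shared promoter region. Some act on the genes beside them, some on chromatin or proteins elsewhere, many have no known role, and a few were later found to code for small proteins. The library kit does not mark strand, so reads where an antisense RNA overlaps its partner cannot be told apart.

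The 4 promoters shown here belong to members that passed the authors' test in at least 1 comparison. TCERG1L-AS1 and FAM211A-AS1 also passed, and their listed promoters, not shown, held none of the motifs capitalised below. No promoter was listed for LINC00475, which passed too. Each is 250 bases before to 50 bases after the annotated start, from RefSeq on build GRCh38.p14, 5′ to 3′ on the strand of the gene. Capitals mark E-boxes (CACGTG), cyclic AMP response elements (TGACGTCA), AP-1 sites (TGAGTCA or TGACTCA) and EGR sites (GCGTGGGCG or GCGGGGGCG), searched on both strands. ADIRF-AS1 is at chr10:86971191-86971490 on the minus strand, DYNLL1-AS1 (now NRAV) at chr12:120495897-120496196 on the minus strand, LINC00265 at chr7:39733318-39733617 on the plus strand and GAS6-AS2 (now GAS6-DT) at chr13:113863927-113864226 on the plus strand.
ADIRF-AS1: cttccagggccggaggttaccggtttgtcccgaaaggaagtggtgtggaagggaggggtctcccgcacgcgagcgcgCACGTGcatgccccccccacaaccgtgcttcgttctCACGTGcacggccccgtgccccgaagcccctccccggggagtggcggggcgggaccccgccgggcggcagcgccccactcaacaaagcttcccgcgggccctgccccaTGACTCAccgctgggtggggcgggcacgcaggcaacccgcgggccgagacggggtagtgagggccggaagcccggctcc
DYNLL1-AS1: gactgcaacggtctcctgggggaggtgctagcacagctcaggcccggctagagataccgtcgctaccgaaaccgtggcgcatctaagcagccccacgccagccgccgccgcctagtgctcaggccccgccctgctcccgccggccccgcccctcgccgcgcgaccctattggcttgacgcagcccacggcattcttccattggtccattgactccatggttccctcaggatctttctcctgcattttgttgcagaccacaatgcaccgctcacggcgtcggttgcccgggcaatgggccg
LINC00265: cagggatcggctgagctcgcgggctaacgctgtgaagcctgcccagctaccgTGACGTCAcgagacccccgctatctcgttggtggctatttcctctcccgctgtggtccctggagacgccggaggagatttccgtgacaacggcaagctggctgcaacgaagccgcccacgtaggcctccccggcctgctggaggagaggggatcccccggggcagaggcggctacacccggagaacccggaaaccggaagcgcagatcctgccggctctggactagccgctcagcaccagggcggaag
GAS6-AS2: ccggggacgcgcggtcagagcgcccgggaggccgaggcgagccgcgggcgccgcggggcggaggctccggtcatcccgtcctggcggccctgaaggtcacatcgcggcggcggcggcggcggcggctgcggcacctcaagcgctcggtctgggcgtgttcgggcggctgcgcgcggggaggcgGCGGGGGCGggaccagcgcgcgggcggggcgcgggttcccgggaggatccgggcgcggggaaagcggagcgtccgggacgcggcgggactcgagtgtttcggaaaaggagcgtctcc

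The ADIRF-AS1 promoter held 2 E-boxes, at 173 and 137 bases before the start, and 1 AP-1 site. An E-box occurred in 7.43% of 27305 promoters of that length in the table, and 2 or more occurred in 0.696%, among them 3 of the 241 members with a listed promoter (ADIRF-AS1, SH3RF3-AS1 and TNRC6C-AS1, which RefSeq lists under TMC6). The LINC00265 promoter held 1 cyclic AMP response element, found in 1.98% of promoters, which by its letters holds the core TGACG on both strands. The GAS6-AS2 promoter held 1 EGR site, found in 5.7% and overlapping a GC box, and its GC content was 79.7%. The DYNLL1-AS1 promoter held none of the capitalised motifs. It held 2 CCAAT boxes (CCAAT, in 35.7% of promoters), 2 GC boxes (GGGCGG, in 44.6%) and 1 core of the cyclic AMP response element (TGACG, in 25%). A D-box (TTATGTAA or TTACGTAA), an interferon-stimulated response core and a TATA box (TATAAA) were also searched, and none of them was in these 4 windows. GC boxes were in 58.9% of members' promoters, which had a median GC content of 65%, against 58.3% over all promoters. Of the 16 members with an E-box in their promoter, ADIRF-AS1 alone passed the authors' test in any comparison. Among entries with a vector mean of at least 20, that test called 1.93% lower with SLNCR1 and 2.71% lower with SLNCR1 delta conserved. At such shares a list of 16 would hold few calls, and nothing about E-boxes is read from this count. The motifs were chosen with the results known, and a match describes letters, not binding.

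All 307 members were matched to a current or older RefSeq gene name. Antisense partners lay in several arrangements: 49 antisense members started back to back with the gene they are named after within 1000 bases, 32 overlapped it head to head within that distance, and 59 started further inside or past it. Of the others, 3 started further upstream, 1, HNRNPU-AS1, is listed under the symbol of its partner and has no arrangement of its own, and for 63 the table did not list both starts. RefSeq now gives 29 antisense members a name for a divergent transcript. It lists 11 LINC and 7 antisense members under protein-coding genes.

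Members were a small part of each library. LINC members took 0.142 to 0.149% of reads with SLNCR1, 0.142 to 0.148% with SLNCR1 conserved, 0.139 to 0.143% with SLNCR1 delta conserved and 0.146 to 0.154% with vector. Antisense members took 0.254 to 0.258%, 0.262 to 0.27% and 0.25 to 0.257% of reads with these constructs, against 0.271 to 0.285% with vector. In normalized reads, summed antisense members reached 25760 and 25890 with SLNCR1, 27220 and 26970 with SLNCR1 conserved, 26230 and 25950 with SLNCR1 delta conserved, and 27690 and 27230 with vector. Without ADIRF-AS1 these sums were 25370 and 25500, 25770 and 25470, 25760 and 25560, and 26360 and 25890. The median vector mean was 76.5 for LINC members and 68.9 for antisense members, and 56 LINC and 130 antisense members were under 100. Single libraries held between 3 and 1980 reads of an antisense member and between 7 and 1953 of a LINC member.

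Libraries held between 8222868 and 12015394 reads. RefSeq lists SLNCR1 under the symbol LINC00673, for which the tables used here hold no row, so the transfected RNA itself was not checked. The GENCODE release 29 gene LINC00511 spans that whole RefSeq gene, and whether reads of the transfected RNA were counted there was not tested. LINC00511 had 864 and 886 normalized reads with SLNCR1, 1052 and 1141 with SLNCR1 conserved, 1155 and 870 with SLNCR1 delta conserved, and 628 and 621 with vector. It passed the authors' test with SLNCR1 (adjusted p = 0.00559) and SLNCR1 conserved (5.89e-15) but not with SLNCR1 delta conserved (0.145). The melanocyte and melanoma markers SOX10 (2940 to 3704 normalized reads) and MITF (540 to 791) were present in every library, while TYR and DCT were at or near 0. The fibroblast collagen COL3A1 had 53.5 normalized reads in 1 SLNCR1 conserved library and 51.2 and 45.5 in the SLNCR1 delta conserved libraries, against 2 to 4.42 in the other 5. In the libraries with high COL3A1, COL1A1 and COL1A2 were also highest, PDGFRB was lowest, and PDGFRA and DCN did not set them apart. The summed level of all 6 fibroblast markers was 669 to 684 with SLNCR1, 630 to 843 with SLNCR1 conserved, 801 to 813 with SLNCR1 delta conserved and 718 to 743 with vector, and its part in the members' values was not tested. Fewer cells of a kind and less RNA per cell cannot be told apart in bulk libraries.

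Per kilobase of exon (GENCODE release 29), the highest vector levels among LINC members were those of LINC01029 (774 normalized reads per kilobase), LINC00973 (306) and LINC00493 (252), the last now SMIM26, which codes for a small mitochondrial membrane protein. Among antisense members they were NCBP2-AS2 (371), FGD5-AS1 (319) and ADIRF-AS1 (232). Exon lengths were found for 299 of the 307 members, and the reads had been counted on another annotation.

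A small number of members were lower with full-length SLNCR1 and with SLNCR1 delta conserved, led by ADIRF-AS1, and none passed the test with SLNCR1 conserved. ADIRF-AS1, described as a circadian clock-regulated RNA that binds a chromatin remodelling complex in human bone cancer cells, had the smallest adjusted p of them. It had 388 and 392 normalized reads with SLNCR1, 1448 and 1506 with SLNCR1 conserved, 475 and 395 with SLNCR1 delta conserved, and 1333 and 1335 with vector. The SLNCR1 and SLNCR1 delta conserved libraries lay far below all 4 others, and both SLNCR1 conserved libraries lay above both vector libraries. In the authors' deposited tables the log2 fold change over vector was -1.77 with SLNCR1 (adjusted p = 1.61e-45), -1.62 with SLNCR1 delta conserved (1.62e-56) and 0.13 with SLNCR1 conserved (adjusted p = 1).

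The gene it is named after, ADIRF, an adipogenesis factor, was listed at 0 reads in every library. The libraries are not stranded, and whether the way reads were counted plays a part in this 0 was not tested. The direct comparisons, made by limma on log2(normalized count + 1) over all 8 libraries with Benjamini-Hochberg adjustment, placed ADIRF-AS1 lower with SLNCR1 than with SLNCR1 conserved (log2 difference -1.92 ± 0.08, SE, adjusted p = 6.47e-11). It was higher with SLNCR1 conserved than with SLNCR1 delta conserved (1.77 ± 0.08, SE, adjusted p = 2.26e-10). The difference between SLNCR1 and SLNCR1 delta conserved was -0.15 ± 0.08 (SE, limma adjusted p = 0.669). Its 4 limma calls held under all 8 settings tried for each, including the loss of any library of the groups compared.

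DYNLL1-AS1, now named NRAV and known as a brake on interferon-stimulated genes in antiviral defence, showed the same order of groups with a smaller change. It had 159 and 167 normalized reads with SLNCR1, 290 and 304 with SLNCR1 conserved, 156 and 207 with SLNCR1 delta conserved, and 280 and 284 with vector. No SLNCR1 or SLNCR1 delta conserved library overlapped the vector libraries. The log2 fold change in the authors' deposited table was -0.79 with SLNCR1 (adjusted p = 0.00065), -0.64 with SLNCR1 delta conserved (adjusted p = 0.00777) and 0.06 with SLNCR1 conserved (adjusted p = 1). By limma, the drop with SLNCR1 delta conserved missed the threshold without vector library a or without SLNCR1 delta conserved library a (highest adjusted p = 0.0598). Its partner DYNLL1, a dynein light chain, lies with its start over 1000 bases from that of DYNLL1-AS1, and had log2 fold changes in the authors' deposited tables of 0.08, 0.01 and 0.09 with SLNCR1, SLNCR1 conserved and SLNCR1 delta conserved (adjusted p = 1 in each).

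**Figure D1:**
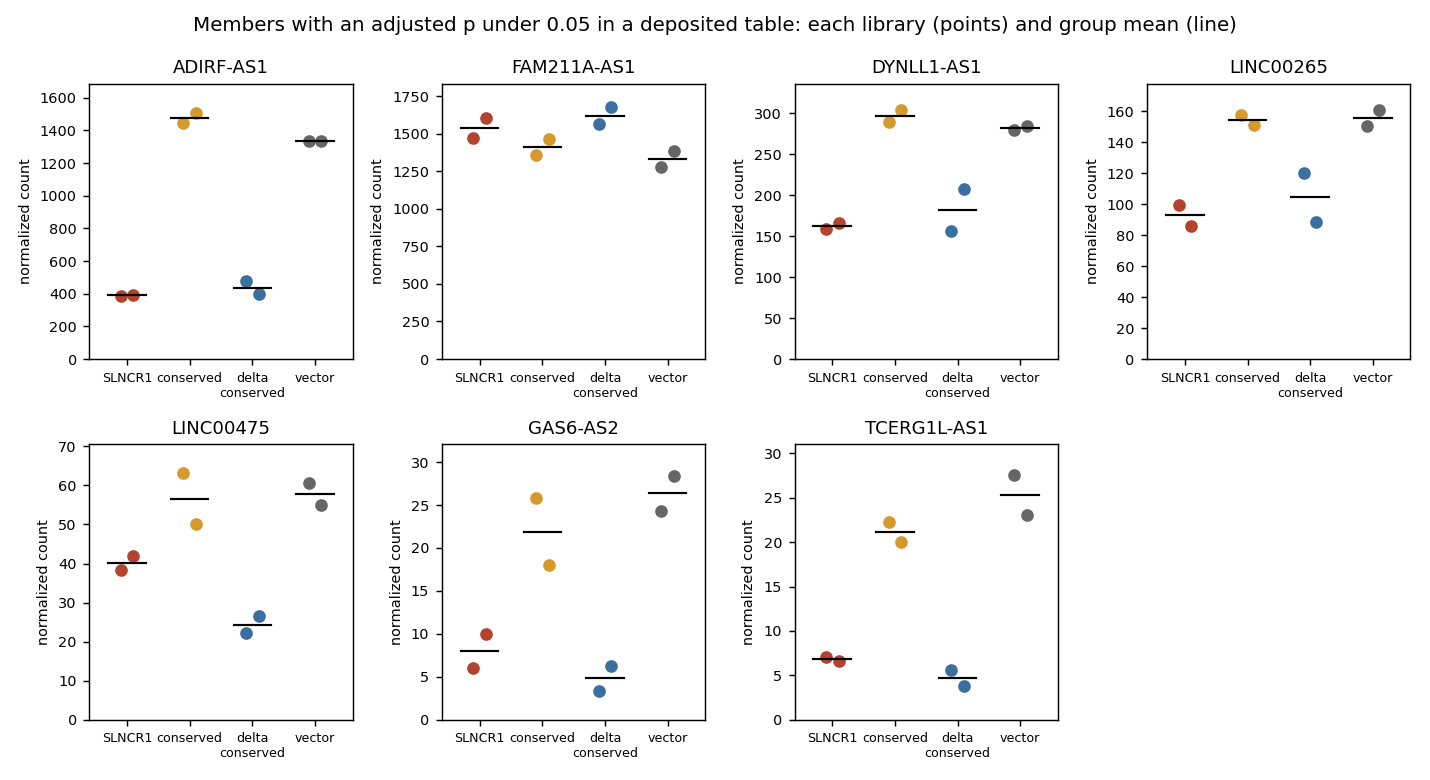
Normalized counts of the 7 members with an authors' adjusted p under 0.05 in any table, with 1 point per library and a line at the mean of each group of 2 (SLNCR1, SLNCR1 conserved, SLNCR1 delta conserved, vector; linear axes from 0). ADIRF-AS1 sits between 388 and 475 with SLNCR1 and SLNCR1 delta conserved and between 1333 and 1506 with SLNCR1 conserved and vector, and FAM211A-AS1 is the only one of the 7 that was called higher with a construct.

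Against vector, the authors' deposited tables called few members. With SLNCR1, 0 of 100 LINC members were higher and 1 was lower, and 0 of 207 antisense members were higher and 2 lower. Over all entries tested, 0.0388% were called higher and 0.844% lower, or 0.0892% and 1.93% of the 14579 entries with a vector mean of at least 20. With SLNCR1 conserved no member was called in either class, where 0.0175% of all entries were called higher and 0.0% lower (0.0412% and 0.0% of those with a vector mean of at least 20). Before adjustment, 0 LINC members and 3 antisense members, all lower, had a p under 0.05 in the authors' deposited table, as did 249 higher and 211 lower entries of the 34347 tested. Limma also called 0 members with SLNCR1 conserved, where 0.00622% of the 16073 genes tested were higher and 0.0% lower (0.00686% and 0.0% of those with a vector mean of at least 20), and before adjustment 2 LINC members were lower, 7 antisense members lower and 1 higher, beside 481 higher and 394 lower of all genes tested. With SLNCR1 delta conserved, 0 LINC members were higher and 1 lower, and 1 antisense member was higher and 4 lower, against 1.11% of all entries called higher and 1.14% lower, or 2.63% and 2.71% of those with a vector mean of at least 20. The members' shares were at or below those of the entries with a vector mean of at least 20, many of which are of higher level than most members. Of the 5 antisense calls with SLNCR1 delta conserved, 3 remained when members were taken by their mean over all libraries, since GAS6-AS2 and TCERG1L-AS1 then fell under the limit of 20.

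**Figure D2:**
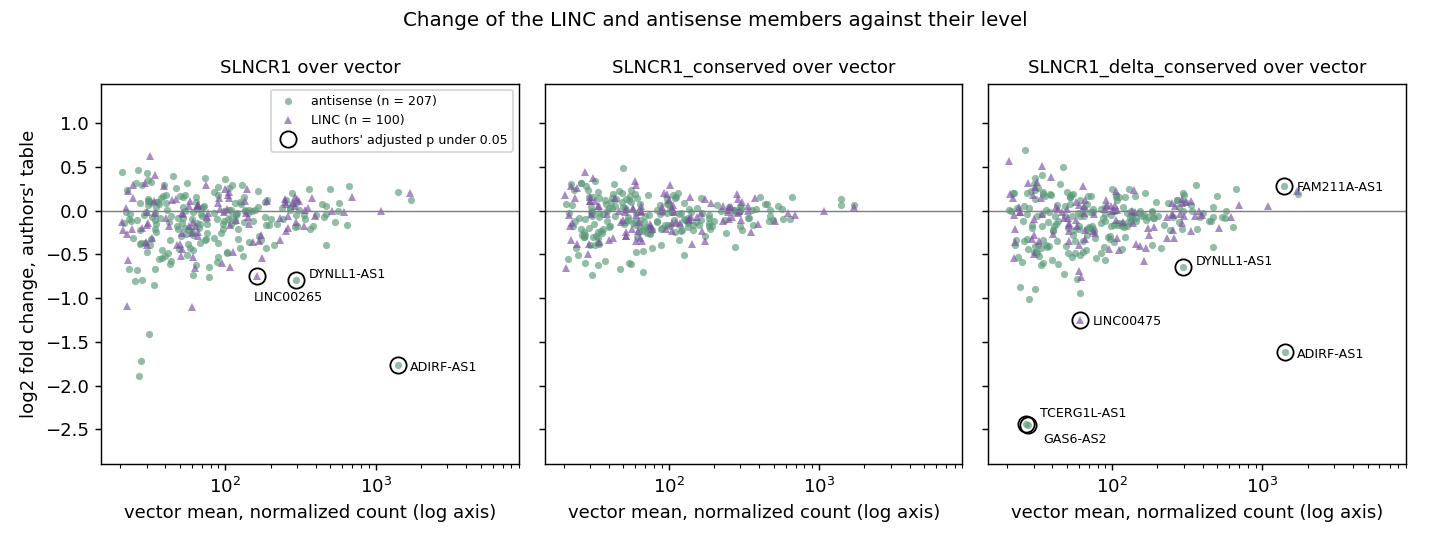
Log2 fold change over vector from the authors' deposited tables (y axis) against the vector mean in normalized counts (log x axis) for the 100 LINC members (triangles) and 207 antisense members (circles), with 1 panel per construct and rings around adjusted p under 0.05. ADIRF-AS1 lies at -1.77 and -1.62 with SLNCR1 and SLNCR1 delta conserved, TCERG1L-AS1 and GAS6-AS2 lie at -1.89 and -1.72 with SLNCR1 and at -2.44 and -2.45 with SLNCR1 delta conserved but at far lower vector means, and no member is ringed with SLNCR1 conserved.

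Among LINC members, LINC00265 fell with SLNCR1 by the authors' test, at the edge of the threshold. It had 99.6 and 86.1 normalized reads with SLNCR1, 158 and 151 with SLNCR1 conserved, 120 and 88.4 with SLNCR1 delta conserved, and 151 and 161 with vector, so that all 4 libraries of SLNCR1 and SLNCR1 delta conserved lay below the others. The log2 fold change in the authors' deposited table was -0.74 with SLNCR1 (adjusted p = 0.04996) and -0.58 with SLNCR1 delta conserved (adjusted p = 0.124). By limma the differences were -0.74 ± 0.16 (SE, adjusted p = 0.00637) and -0.59 ± 0.16 (SE, adjusted p = 0.0225). The first ended without vector library a (adjusted p = 0.0578), and the second with no filter and without either vector library or SLNCR1 delta conserved library b (highest adjusted p = 0.306). RALA, a small GTPase and its nearest measured neighbour, had log2 fold changes in the authors' deposited tables of 0.23 with SLNCR1 and 0.15 with SLNCR1 delta conserved, neither of which passed (adjusted p = 0.747 and 0.954).

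LINC00475 fell with SLNCR1 delta conserved. It had 38.2 and 41.9 normalized reads with SLNCR1, 63.2 and 50 with SLNCR1 conserved, 22.2 and 26.5 with SLNCR1 delta conserved, and 60.7 and 55.1 with vector. The SLNCR1 delta conserved libraries were the lowest and the SLNCR1 libraries lay between them and the other 4. The log2 fold change in the authors' deposited table was -1.25 with SLNCR1 delta conserved (adjusted p = 0.0224) and -0.53 with SLNCR1 (adjusted p = 0.987), and the direct difference between SLNCR1 and SLNCR1 delta conserved was 0.70 ± 0.22 (SE, limma adjusted p = 0.503). Without vector library a the limma call with SLNCR1 delta conserved was lost (adjusted p = 0.0568). Its neighbour SPTLC1, a subunit of the enzyme that starts sphingolipid synthesis, had log2 fold changes of 0.02 with SLNCR1 and 0.09 with SLNCR1 delta conserved (adjusted p in the authors' deposited table = 1 in both).

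By limma, 5 LINC members were lower and 0 higher with SLNCR1, where 7.4% of the genes tested were lower and 3.93% higher, or 8.09% and 4.32% of those with a vector mean of at least 20. The 5 were LINC00491, LINC00265, LINC01021, LINC00632 and LINC00472. LINC00491 had 25.2 and 27.6 normalized reads with SLNCR1, 70.4 and 75 with SLNCR1 conserved, 36.7 and 34.1 with SLNCR1 delta conserved, and 63.2 and 50.6 with vector. Its libraries separated into a low set, SLNCR1 and SLNCR1 delta conserved, and a high set. The limma log2 difference from vector was -1.07 ± 0.22 with SLNCR1 (SE, adjusted p = 0.00438, 0.106 without vector library a) and -0.66 ± 0.22 with SLNCR1 delta conserved (SE, adjusted p = 0.0583). LINC01021, also called PURPL, is induced by p53 and holds basal p53 down. It had 70.4 and 59.6 normalized reads with SLNCR1, 107 and 109 with SLNCR1 conserved, 82.3 and 82.1 with SLNCR1 delta conserved, and 111 and 93.3 with vector. Its limma difference from vector was -0.64 ± 0.16 with SLNCR1 (SE, adjusted p = 0.0206), and the call ended with no filter and without vector library a or SLNCR1 library b (highest adjusted p = 0.235). LINC00632, from which the circular RNA CDR1as is made in brain, differed by -0.59 ± 0.17 (SE, limma adjusted p = 0.0314), and LINC00472 by -0.55 ± 0.14 (SE, limma adjusted p = 0.02). Both calls were lost with no filter and without either vector library or SLNCR1 library b, and without SLNCR1 library b the LINC00472 difference was -0.35 (adjusted p = 0.191).

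With SLNCR1 delta conserved, limma called 3 LINC members lower and 1 higher, where 5.24% of genes tested were lower and 5.18% higher, or 5.71% and 5.68% of those with a vector mean of at least 20. LINC00475, LINC00265 and LINC00552 (-0.75 ± 0.23, SE, limma adjusted p = 0.0481) were lower, the last not with no filter or without any 1 of the 4 libraries compared (-0.49 without SLNCR1 delta conserved library a, highest adjusted p = 0.334). LINC01029, the LINC member with the most reads, was higher, with 1831 and 1888 normalized reads with SLNCR1, 1655 and 1728 with SLNCR1 conserved, 1847 and 1955 with SLNCR1 delta conserved, and 1582 and 1661 with vector. Its difference from vector with SLNCR1 delta conserved was 0.23 ± 0.07 (SE, limma adjusted p = 0.0342, and 0.0334 to 0.307 over the other settings). These counts changed when a library was left out, as did the counts over all genes tested. Such fits leave a single library in a group, and what the changes say about the members was not tested.

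Among antisense members, GAS6-AS2 and TCERG1L-AS1 had the largest log2 changes with SLNCR1 delta conserved, at low read numbers. Both met the level limit by their vector mean, the high side of these changes, and not by their mean over all libraries. Selection on the vector libraries can therefore enlarge their changes from vector. GAS6-AS2, which starts 101 bases from GAS6 and runs away from it, had 6.04 and 9.93 normalized reads with SLNCR1, 25.8 and 18.0 with SLNCR1 conserved, 3.34 and 6.31 with SLNCR1 delta conserved, and 24.3 and 28.4 with vector. The SLNCR1 and SLNCR1 delta conserved libraries lay below the others without overlap. The log2 fold change in the authors' deposited table was -2.45 with SLNCR1 delta conserved (adjusted p = 0.00957) and -1.72 with SLNCR1 (adjusted p = 0.153). Limma called both (adjusted p = 0.0023 and 0.0179), the second not with no filter or without vector library a or b (highest adjusted p = 0.132). GAS6, the ligand of the receptor kinase AXL, had 359 and 363 normalized reads with SLNCR1, 414 and 365 with SLNCR1 conserved, 320 and 304 with SLNCR1 delta conserved, and 385 and 458 with vector, and did not pass (log2 fold change in the authors' deposited table -0.43 with SLNCR1 delta conserved, adjusted p = 0.122).

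TCERG1L-AS1 had 7.04 and 6.62 normalized reads with SLNCR1, 22.3 and 20 with SLNCR1 conserved, 5.56 and 3.79 with SLNCR1 delta conserved, and 27.5 and 23.1 with vector. The order of the groups was that of GAS6-AS2, again without overlap between the low and the high libraries. The log2 fold change in the authors' deposited table was -2.44 with SLNCR1 delta conserved (adjusted p = 0.0139) and -1.89 with SLNCR1 (adjusted p = 0.112). TCERG1L itself had 0 to 7 normalized reads in every library. Over the 4 group means, the members whose log2 pattern was most like that of GAS6-AS2, the member with the largest change, were MAP3K14-AS1 (Pearson r = 0.998), TCERG1L-AS1 (0.998) and SBF2-AS1 (0.993). With only 4 points and 306 other members searched, values near 1 arise by the search alone and are given as a description. MAP3K14-AS1 did not pass the test in any table (log2 fold change in the authors' deposited table -0.24 with SLNCR1, -0.08 with SLNCR1 conserved and -0.34 with SLNCR1 delta conserved).

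FAM211A-AS1, now SNHG29 and a host of small nucleolar RNAs, was the only member called higher by the authors. It had 1473 and 1607 normalized reads with SLNCR1, 1356 and 1463 with SLNCR1 conserved, 1562 and 1678 with SLNCR1 delta conserved, and 1281 and 1382 with vector. Both SLNCR1 delta conserved libraries lay above both vector libraries. The log2 fold change in the authors' deposited table was 0.28 with SLNCR1 delta conserved (adjusted p = 0.0341) and 0.21 with SLNCR1 (adjusted p = 0.754). By limma the rise was 0.28 ± 0.07 (SE, adjusted p = 0.0201), and it missed the threshold with TMM size factors, with no filter, and without vector library a or either SLNCR1 delta conserved library (highest adjusted p = 0.247).

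By limma, 8 antisense members were lower and 1 higher with SLNCR1, and 7 were lower and 3 higher with SLNCR1 delta conserved. Of all genes tested, 7.4% were lower and 3.93% higher with SLNCR1, and 5.24% and 5.18% with SLNCR1 delta conserved. Among those with a vector mean of at least 20, these shares were 8.09% and 4.32%, and 5.71% and 5.68%. The counts are smaller shares of 207, but many of the genes tested are of higher level than most members. Besides those described, LBX2-AS1 had 340 and 334 normalized reads with SLNCR1, 412 and 447 with SLNCR1 conserved, 372 and 297 with SLNCR1 delta conserved, and 440 and 451 with vector. It differed from vector by -0.40 ± 0.10 with SLNCR1 (SE, limma adjusted p = 0.02) and by -0.42 ± 0.10 with SLNCR1 delta conserved (SE, limma adjusted p = 0.0131). Both calls were lost with no filter and without either vector library, and the second also without SLNCR1 delta conserved library b, where the difference was -0.26 (adjusted p = 0.252). MATN1-AS1 had 34.2 and 35.3 normalized reads with SLNCR1, 55.2 and 60 with SLNCR1 conserved, 30.0 and 30.3 with SLNCR1 delta conserved, and 59.1 and 56.8 with vector. Its differences were -0.72 ± 0.21 (SE, limma adjusted p = 0.0357) and -0.92 ± 0.21 (SE, limma adjusted p = 0.0102), and the calls were lost under 5 and 3 of 8 settings (highest adjusted p = 0.233 and 0.102). TRAM2-AS1 and WWC2-AS2 were lower with SLNCR1 by limma, and HOXC13-AS, from the HOXC cluster of developmental genes, with SLNCR1 delta conserved, each of them not without some single libraries.

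The antisense members higher than vector by limma include 2 that RefSeq lists as protein coding. CEBPZ-AS1, now CEBPZOS, had 752 and 781 normalized reads with SLNCR1, 705 and 718 with SLNCR1 conserved, 731 and 774 with SLNCR1 delta conserved, and 636 and 629 with vector. All 6 construct libraries lay above vector, and limma called the difference with SLNCR1 (0.28 ± 0.07, SE, adjusted p = 0.0216) and with SLNCR1 delta conserved (0.25 ± 0.07, SE, adjusted p = 0.0322), not with SLNCR1 conserved. The SLNCR1 call was lost with no filter and without either vector library or SLNCR1 library b (highest adjusted p = 0.133), and the SLNCR1 delta conserved call under 7 of 8 settings, TMM factors and library totals among them (highest adjusted p = 0.276). NCBP2-AS2, which codes for a small protein and starts 146 bases from the cap-binding gene NCBP2, was higher with SLNCR1 delta conserved (0.29 ± 0.09, SE, limma adjusted p = 0.0428), a call kept with a pseudocount of 4 and lost under the other 7 settings (highest adjusted p = 0.272). Neither gene passed the authors' test. Counts of antisense calls with SLNCR1 and with SLNCR1 delta conserved also changed when a library was left out, as did those over all genes tested.

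**Figure D3:**
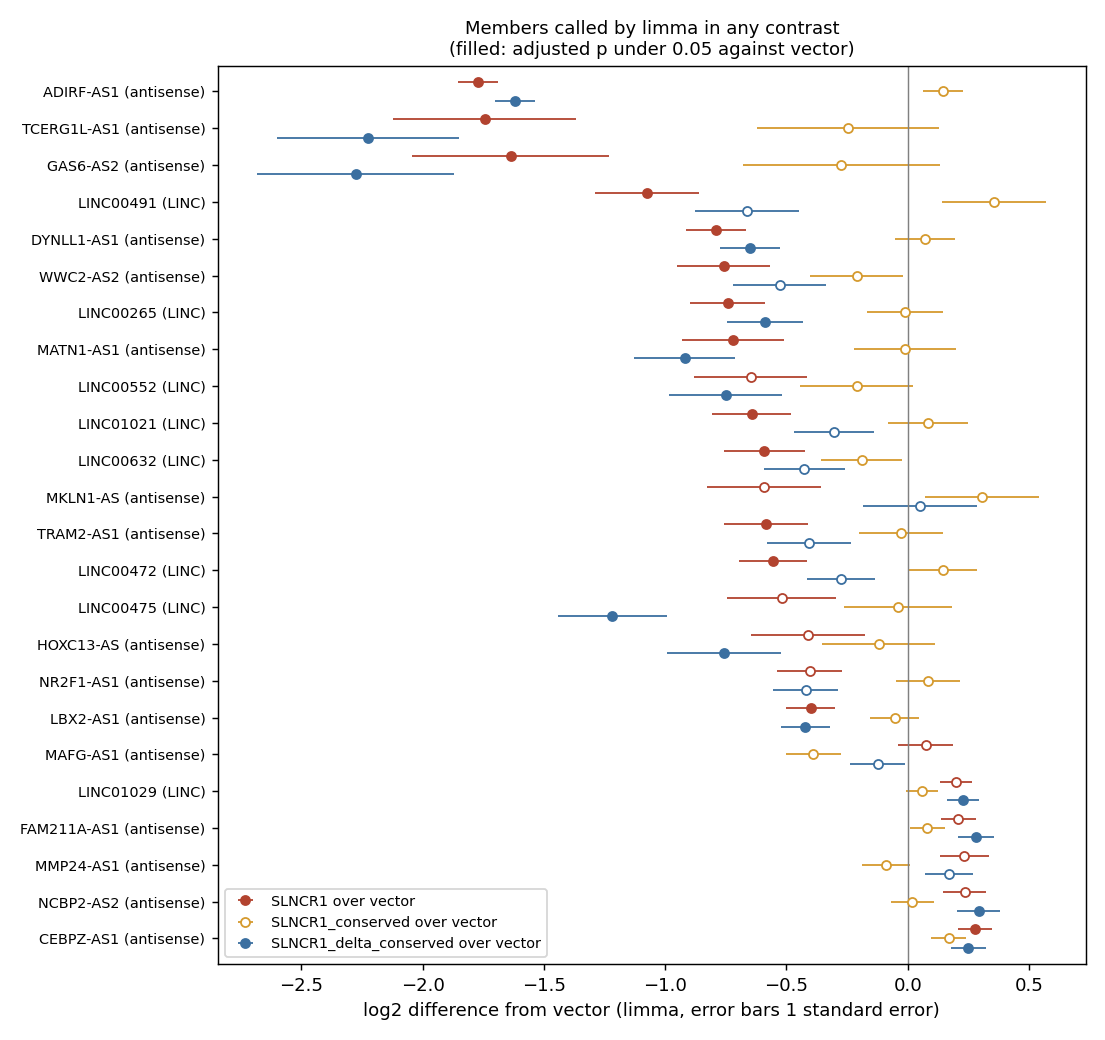
Limma log2 difference from vector with 1 standard error for the 24 members called in any limma contrast, 1 row per member with SLNCR1 above SLNCR1 conserved above SLNCR1 delta conserved, and filled points where the adjusted p against vector is under 0.05. No SLNCR1 conserved point is filled, and ADIRF-AS1 and DYNLL1-AS1 have small errors beside TCERG1L-AS1 and GAS6-AS2.

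The comparisons above share the vector libraries. Direct differences between constructs are taken between construct libraries, with size factors and an estimate of the spread that also draw on the vector libraries. SLNCR1 against SLNCR1 delta conserved gave 0 limma calls among LINC members and 0 among antisense members, as among all genes tested (0.0% higher and 0.0% lower). Before adjustment, a p under 0.05 was found for 4 LINC members above and 2 below, and for 5 antisense members above and 6 below, where 415 of the 16073 genes tested were above and 870 below. Without SLNCR1 library a there were 3 LINC and 6 antisense calls, and 123 genes of all those tested were called higher and 1104 lower.

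SLNCR1 against SLNCR1 conserved gave 4 lower and 0 higher LINC members, and 9 lower and 2 higher antisense members, where 9.46% of genes tested were lower and 2.05% higher, or 10.3% and 2.22% of those with a vector mean of at least 20. The LINC members were LINC00491 (-1.43 ± 0.22, SE, limma adjusted p = 0.000262), LINC00265, LINC01021 and LINC00472 (-0.70 ± 0.14, SE, limma adjusted p = 0.00285). LINC00491 and LINC00472 held in this comparison under all 8 settings. MKLN1-AS was lower (-0.90 ± 0.24, SE, limma adjusted p = 0.018, a call lost with no filter or without either SLNCR1 conserved library), with 26.2 and 27.6 normalized reads with SLNCR1, 49.0 and 53.0 with SLNCR1 conserved, 35.6 and 50.5 with SLNCR1 delta conserved, and 42.9 and 39.1 with vector. NR2F1-AS1, beside the gene of a nuclear receptor of neural crest cells, was also lower (-0.49 ± 0.13, SE, limma adjusted p = 0.0223), but not with no filter or without SLNCR1 library a (-0.31, adjusted p = 0.105) or either SLNCR1 conserved library. MMP24-AS1, now MMP24OS and protein coding in RefSeq, was higher (0.32 ± 0.10, SE, limma adjusted p = 0.0422). That call was lost under 4 of 8 settings, over which the difference ranged from 0.19 to 0.46. MAFG-AS1, beside the gene of a small MAF transcription factor, was also higher, with 268 and 287 normalized reads with SLNCR1, 192 and 209 with SLNCR1 conserved, 253 and 231 with SLNCR1 delta conserved, and 240 and 289 with vector. Here the SLNCR1 conserved libraries were the low ones (0.47 ± 0.11, SE, limma adjusted p = 0.0116, and 0.147 without SLNCR1 conserved library a). Antisense and LINC counts changed with the library left out, as did the counts over all genes tested.

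SLNCR1 conserved against SLNCR1 delta conserved gave 3 higher and 0 lower LINC members, and 7 higher and 0 lower antisense members, where 5.79% of genes tested were higher and 1.11% lower, or 6.31% and 1.21% of those with a vector mean of at least 20. The LINC members were LINC00475 (1.18 ± 0.22, SE, limma adjusted p = 0.0027), LINC00491 (1.02 ± 0.22, SE, limma adjusted p = 0.00599) and LINC00265. Among antisense members, GAS6-AS2 differed by 2.0 ± 0.41 (SE, limma adjusted p = 0.00432), TCERG1L-AS1 by 1.98 ± 0.38 (SE, limma adjusted p = 0.00269) and DYNLL1-AS1 by 0.72 ± 0.12 (SE, limma adjusted p = 0.00115). Here too, both counts depended on which library was left out, as did the counts over all genes tested.

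Among the 184 pairs in which the partner of an antisense member also had a vector mean of at least 20, changes of the 2 genes were only weakly related. Pearson r across pairs of the log2 fold changes in the authors' deposited tables was 0.07 with SLNCR1, 0.13 with SLNCR1 conserved and 0.17 with SLNCR1 delta conserved. Pairs share their libraries and, where they overlap, reads. With SLNCR1, 2 partners passed the authors' test and both were lower: MAP3K14, the kinase that starts noncanonical NF-kB signalling (log2 fold change -0.57 for the partner, -0.24 for MAP3K14-AS1), and THAP9, a transposon-derived gene (-1.10 for the partner, 0.07 for THAP9-AS1). Among all entries with a vector mean of at least 20, 0.0892% were called higher and 1.93% lower with SLNCR1. The shares with SLNCR1 delta conserved were 2.63% and 2.71%. With SLNCR1 delta conserved, 10 partners passed, 8 higher and 2 lower. The vimentin gene VIM was higher (0.34, adjusted p in the authors' deposited table = 0.00495) while VIM-AS1 had -0.39 and did not pass. WWTR1, the Hippo pathway coactivator TAZ, was higher (0.30, adjusted p in the authors' deposited table = 0.00189) while WWTR1-AS1 had -1.02 and did not pass (adjusted p = 0.57). None of the 12 partner calls belonged to an antisense member that passed the authors' test in the same table. Of the antisense members in these pairs, only 1 passed with SLNCR1 and 3 with SLNCR1 delta conserved. Shared calls would be rare among so few, and nothing is read from their absence.

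**Figure D4:**
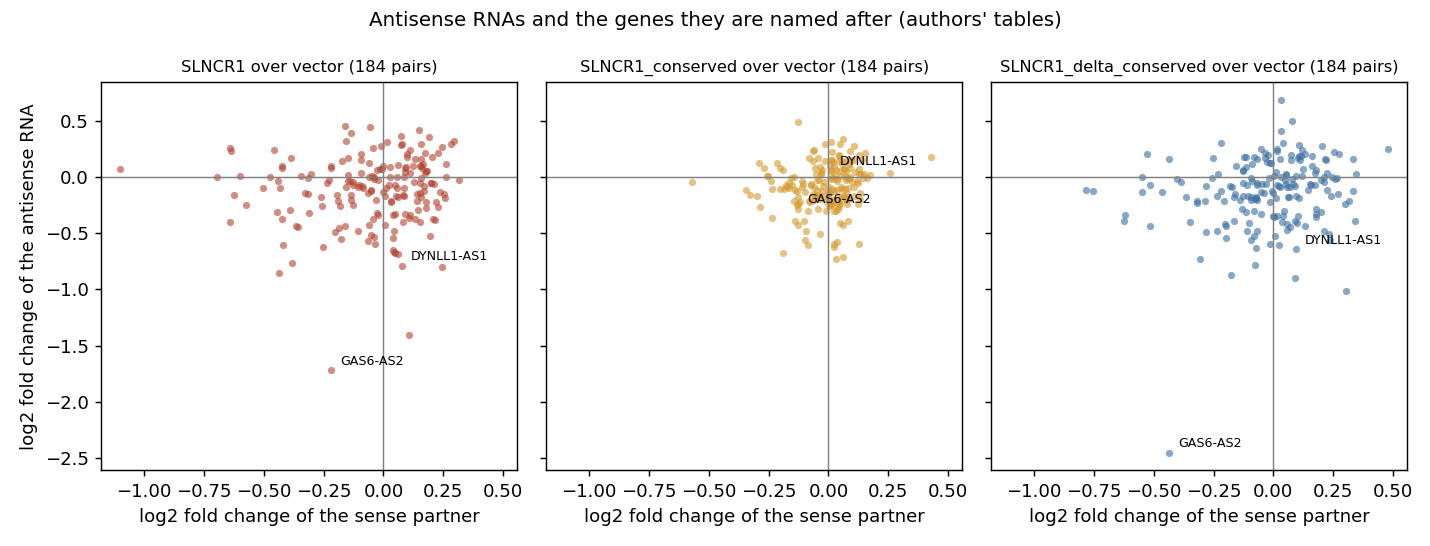
Log2 fold change over vector of 184 antisense members (y axis) against that of the gene each is named after (x axis), from the authors' deposited tables, with 1 panel per construct and 1 point per pair. GAS6-AS2 and DYNLL1-AS1 lie low on the y axis with SLNCR1 and SLNCR1 delta conserved while their partners lie between -0.43 and 0.09.

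LINC and antisense names that RefSeq now gives to protein-coding genes did not pass the authors' test in any table. At the shares of all entries given above, lists this small would hold few calls, and nothing is read from their absence. Limma called the coding antisense members CEBPZ-AS1, NCBP2-AS2 and MMP24-AS1 in the comparisons given above. With SLNCR1, SLNCR1 conserved and SLNCR1 delta conserved, the 11 LINC members of this kind had median log2 fold changes of 0.06, -0.03 and 0.05, and the 7 antisense members 0.17, 0.02 and 0.00. LINC00998, now SMIM30, which codes for a small membrane protein, had 229 and 276 normalized reads with SLNCR1, 253 and 228 with SLNCR1 conserved, 253 and 250 with SLNCR1 delta conserved, and 257 and 217 with vector. Its groups overlapped throughout. LINC00961, now SPAAR, whose small protein restrains amino acid sensing by mTORC1, ranged over log2 fold changes of 0.32, -0.50 and -0.32 with the same constructs and did not pass.

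A list of 17 members with described roles had 0 calls by the authors' test and 0 by limma against vector with any construct. Set against the shares of all genes given above, a list of this size would hold few calls, and nothing is read from the 0. Its median log2 fold changes were -0.07 with SLNCR1, -0.03 with SLNCR1 conserved and -0.07 with SLNCR1 delta conserved. FGD5-AS1, the antisense member with the most reads, had 1801 and 1757 normalized reads with SLNCR1, 1733 and 1726 with SLNCR1 conserved, 1850 and 1883 with SLNCR1 delta conserved, and 1603 and 1666 with vector. All 6 construct libraries lay above vector, by a log2 fold change of at most 0.19 in the authors' deposited tables (lowest adjusted p = 0.31). LINC00473, a target of cyclic AMP signalling through CREB, had 350 and 362 normalized reads with SLNCR1, 354 and 327 with SLNCR1 conserved, 381 and 341 with SLNCR1 delta conserved, and 389 and 359 with vector. LINC00152, now CYTOR, a cytoplasmic RNA raised in many tumours, had 175 and 173 with SLNCR1, 198 and 213 with SLNCR1 conserved, 166 and 188 with SLNCR1 delta conserved, and 217 and 223 normalized reads with vector. LINC00152 lay lower in all 6 construct libraries but did not pass (lowest adjusted p in the authors' deposited table = 0.615). ZEB1-AS1, which overlaps the start of the epithelial-mesenchymal factor ZEB1, had log2 fold changes of -0.25, -0.17 and -0.30 with these constructs, and none passed.

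Among the 30 measured genes of RNA decay, which include subunits of the nuclear exosome, the exonucleases XRN1 and XRN2 and nonsense-mediated decay factors, 0 passed the authors' test in any table. At the shares of all entries given above, a list of this size would hold few calls, and nothing is read from the 0. The median log2 fold change of these decay genes was -0.02 with SLNCR1, 0.06 with SLNCR1 conserved and 0.02 with SLNCR1 delta conserved. With SLNCR1 single genes ranged from -0.46 (SMG1) to 0.20 (EXOSC4).

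As classes, members lay slightly below 0 with every construct. The median log2 fold change of LINC members in the authors' deposited tables was -0.04 with SLNCR1, -0.03 with SLNCR1 conserved and -0.05 with SLNCR1 delta conserved, with 41, 39 and 37 of 100 members above 0. That of antisense members was -0.08, -0.09 and -0.08, with 74, 72 and 64 of 207 above 0. Over all 14579 entries with a vector mean of at least 20 the medians were 0.0047, 0.0035 and -0.0059. Among entries with a vector mean from 20 to 100, a range set after seeing the medians, LINC members had -0.11, -0.04 and -0.04, antisense members -0.12, -0.10 and -0.17, and the 3001 other entries -0.10, -0.09 and -0.12. No test was made of these medians. The lower limit was set on vector reads alone, which are also the denominator of these fold changes. Selection by itself can therefore place members below 0, and its part in the medians cannot be told apart here. On the limma scale, the medians with SLNCR1 were -0.05 for LINC and -0.09 for antisense members. With members taken by their mean over all libraries they were -0.04 and -0.07. For members by vector mean, the limma-scale medians were -0.01 and -0.07 with SLNCR1 conserved, and -0.05 and -0.07 with SLNCR1 delta conserved. On that scale 47 of 100 LINC members lay above 0 with SLNCR1 conserved.

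**Figure D5:**
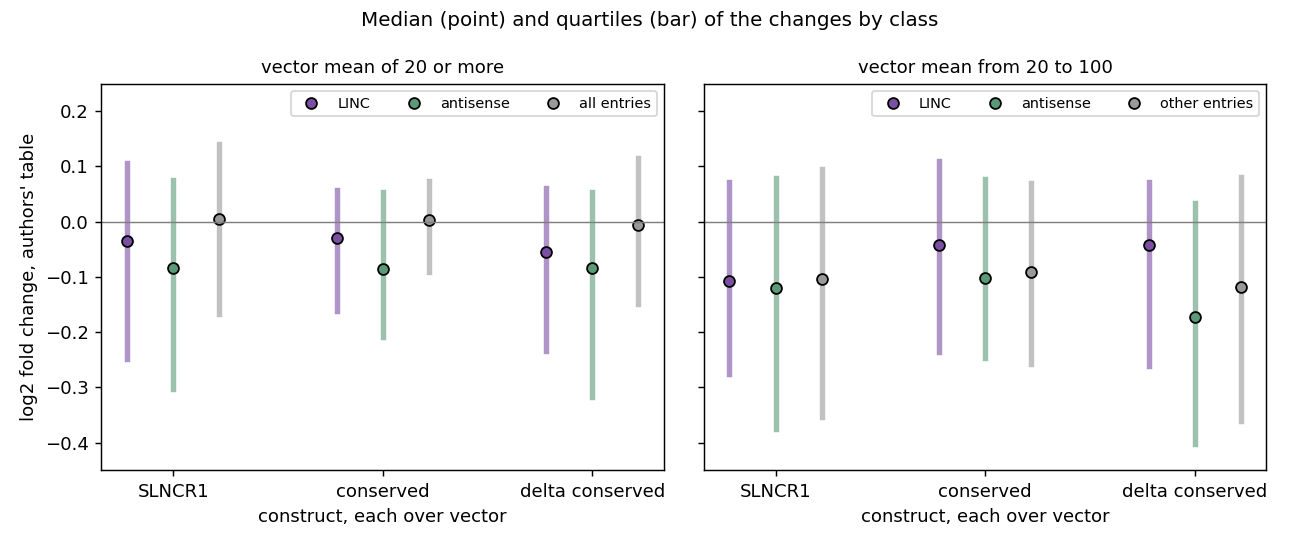
Median (point) and quartiles (bar) of the log2 fold change over vector in the authors' deposited tables for LINC members, antisense members and other entries, by construct. The left panel has entries with a vector mean of at least 20, where all entries lie near 0, and the right panel those from 20 to 100, where other entries have medians of -0.10, -0.09 and -0.12.

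The 2 libraries of a group differed by a median of 0.2, 0.15, 0.18 and 0.14 on the log2 scale for LINC members with SLNCR1, SLNCR1 conserved, SLNCR1 delta conserved and vector, and by 0.18, 0.16, 0.21 and 0.17 for antisense members. For all entries with a vector mean of at least 20 these medians were 0.13, 0.08, 0.09 and 0.11. Those entries include many of far higher level than most members, and the spread was not compared at matched level. Members just inside the level limit were LINC00638 (20.4 normalized reads), LINC00920 (20.8) and IBA57-AS1 (20.7), and entries just outside it were LINC00893 (18.4), LINC00649 (18.3), CRYM-AS1 (19.9) and TMEM9B-AS1 (19.7).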

How the data were processed

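RNA from 8 A375 libraries, 2 per group, was poly(A)-selected and sequenced with an unstranded kit, per the labels' protocols. STAR, featureCounts, DESeq and build hg19 are named in the submitters' processing notes, without versions. The authors deposited 3 tables of 56638 entries, each comparing a construct with vector. The deposited group means are normalized counts, a depth-scaled signal averaged over 2 libraries per the file headers. The deposited fold change is the ratio of those means, per the file headers. The deposited p-value and adjusted p-value are the authors' own, and each table was normalized on its own.

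Fold changes were recomputed as log2 of the ratio of the deposited means. Whole reads of single libraries were solved from those means. The pair of whole read numbers was unique for 100% of expressed genes with SLNCR1 and vector, 99.98% with SLNCR1 conserved and 99.997% with SLNCR1 delta conserved. Library a is the deeper of each pair, and neither carries a replicate number. Median-of-ratios size factors over all 8 libraries gave the normalized reads printed per library. Limma 3.58.1 in R 4.3.3 was fitted with a trend to log2(normalized count + 1) of 16073 genes with a mean of at least 10, in 4 groups (4 residual degrees of freedom, prior 13.6), with Benjamini-Hochberg adjustment and a threshold of 0.05, the same as for the authors' values. The recovery was tried on simulated means with the size factors taken as known, so their estimation was not part of that check. The limma fit was tried on simulated counts. The 2 libraries per group and the low reads of most members limit the precision.

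Members with an adjusted p under 0.05 in any test, the highest and lowest changes, the most abundant, those with a protein and a list with known roles were named by rule. Members and lists were chosen with earlier results of these data known. Alternatives were another threshold, TMM factors, library totals, a pseudocount of 4, no filter, membership by the mean over all libraries, and each library left out in turn. LINC00511, LINC00657 and OIP5-AS1 were left out by the rule, and whether reads of the transfected RNA were counted under LINC00511 was not tested. Tools also were Python 3.11.15, pandas 2.3.3, numpy 2.4.6 and matplotlib 3.10.9.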

Additional observations from a re-analysis of the deposited data

Results flagged for a closer look

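Entries with LINC or antisense names below the limit of 20 in vector libraries lay outside the comparisons above, and 3 of them passed limma's adjusted threshold. How many such entries limma tested was not counted. Over all genes tested, 5.18% were higher and 5.24% lower with SLNCR1 delta conserved than with vector. The shares were 5.79% and 1.11% for SLNCR1 conserved over SLNCR1 delta conserved, and 2.05% and 9.46% for SLNCR1 over SLNCR1 conserved. The 3 entries had low reads and were not followed over the other settings. LAMTOR5-AS1, named after a subunit of the complex that anchors mTORC1 to lysosomes, had 20.1 and 18.8 normalized reads with SLNCR1, 16.0 and 14.0 with SLNCR1 conserved, 3.34 and 7.58 with SLNCR1 delta conserved, and 19.4 and 16.0 with vector. Its log2 difference was -1.61 between SLNCR1 delta conserved and vector (limma adjusted p = 0.0142) and 1.39 between SLNCR1 conserved and SLNCR1 delta conserved (limma adjusted p = 0.0384). FEZF1-AS1 had 23.2 and 21.0 normalized reads with SLNCR1, 8.02 and 10.0 with SLNCR1 conserved, 18.9 and 11.4 with SLNCR1 delta conserved, and 14.6 and 13.3 with vector, a log2 difference of 1.21 between SLNCR1 and SLNCR1 conserved (limma adjusted p = 0.0365). LINC00689 had 27.2 and 13.2 normalized reads with SLNCR1, 4.45 and 9.0 with SLNCR1 conserved, 24.5 and 13.9 with SLNCR1 delta conserved, and 17.8 and 16.0 with vector, a log2 difference of 1.44 between SLNCR1 and SLNCR1 conserved (limma adjusted p = 0.0351). Groups of 2 libraries were not tested for a library that stands apart.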

How the results depend on the processing

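No paired analysis was possible because the recovered libraries carry no replicate number. Of 53 limma calls in 24 members, 12 calls in 6 members were kept under every setting tried, 41 were lost under at least 1 and 0 changed direction. The antisense calls by the authors with SLNCR1 delta conserved were 3 with membership by the mean over all libraries, against 5. With no filter, limma calls against vector were 2 LINC and 3 antisense members with SLNCR1, against 5 and 9, and 1 LINC and 5 antisense members with SLNCR1 delta conserved, against 4 and 10, and 3 antisense members between SLNCR1 and SLNCR1 conserved, against 11. Library totals gave 7 LINC calls with SLNCR1 delta conserved, against 4, and TMM factors 5 between SLNCR1 conserved and SLNCR1 delta conserved, against 3. The cause of these shifts was not tested. Leaving out 1 library gave LINC calls of 0 to 9 (SLNCR1 against vector), 0 to 2 (SLNCR1 delta conserved against vector), 0 to 3 (SLNCR1 against SLNCR1 delta conserved), 0 to 3 (SLNCR1 conserved against SLNCR1 delta conserved) and 2 to 9 (SLNCR1 against SLNCR1 conserved). Antisense calls ranged over 3 to 25, 3 to 6, 0 to 6, 3 to 4 and 2 to 21 in the same order, and SLNCR1 conserved against vector stayed at 0 in both classes. Most members have under 100 normalized reads per library, where small changes were not detectable at this depth.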
